A study of Mus musculus with 8 samples.

Results

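Ctsk, Gpnmb, Mmp13 and Bglap are genes best known from bone, and their transcripts were followed here in lung. They are 4 of the 8741 genes named on the array, and each was read by 1 probe of 20794. They were chosen by name, with their mean log2 ratio over the mice already known, so that mean is described below and not tested. Lung RNA came from 4 male Fra-2 transgenic mice, which carry a transgene of the AP-1 gene Fosl2, at 14 weeks of age on a C57BL6 x CBA background. They were set against a single pool made from the lungs of 4 wild-type males, also 14 weeks old and C57BL6 x CBA. Each transgenic mouse was hybridised against the pool on 2 arrays with the dyes exchanged, giving 8 two-colour arrays in all. Mice of 6 and 10 weeks were also part of the study and are not analysed here. The labels do not name the promoter that drives the transgene, and no probe is named Fosl2 in the annotation used here, so the transgene itself was not checked.

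Cathepsin K, the product of Ctsk, is the cysteine protease that osteoclasts release onto bone to digest collagen, and it also cuts elastin. Mmp13 encodes collagenase 3, the main collagenase of rodents, made by hypertrophic chondrocytes and osteoblasts. Gpnmb encodes a transmembrane glycoprotein of osteoblasts, osteoclasts, melanocytes and macrophages, also called osteoactivin. Bglap encodes osteocalcin, a small protein of bone matrix that osteoblasts secrete. AP-1 factors are dimers of Fos and Jun family proteins, Fra-2 among them, which bind the motif TGANTCA, and AP-1 sites are known in the control of Mmp13 in bone cells.

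The promoter windows of the 4 genes are printed to show where that motif occurs. They run from 250 bases before to 50 bases after the RefSeq transcription start in GRCm38.p6, written 5′ to 3′ on the strand of the gene, with matches to TGANTCA in capitals. The Ctsk window lies at chr3:95498960-95499259 on the plus strand, Gpnmb at chr6:49036268-49036567 on the plus strand, Mmp13 at chr9:7272264-7272563 on the plus strand and Bglap at chr3:88384417-88384716 on the minus strand.
Ctsk: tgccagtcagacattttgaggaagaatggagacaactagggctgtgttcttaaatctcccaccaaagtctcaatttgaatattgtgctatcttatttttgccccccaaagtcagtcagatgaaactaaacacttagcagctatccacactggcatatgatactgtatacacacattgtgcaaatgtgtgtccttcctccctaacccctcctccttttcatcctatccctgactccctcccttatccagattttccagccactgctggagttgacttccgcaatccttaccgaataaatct
Gpnmb: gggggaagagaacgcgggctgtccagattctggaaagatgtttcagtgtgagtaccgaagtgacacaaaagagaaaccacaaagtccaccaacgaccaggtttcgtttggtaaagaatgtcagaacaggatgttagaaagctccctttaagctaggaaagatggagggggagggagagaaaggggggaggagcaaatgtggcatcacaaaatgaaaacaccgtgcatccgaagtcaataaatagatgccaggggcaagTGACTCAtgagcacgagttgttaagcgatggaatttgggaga
Mmp13: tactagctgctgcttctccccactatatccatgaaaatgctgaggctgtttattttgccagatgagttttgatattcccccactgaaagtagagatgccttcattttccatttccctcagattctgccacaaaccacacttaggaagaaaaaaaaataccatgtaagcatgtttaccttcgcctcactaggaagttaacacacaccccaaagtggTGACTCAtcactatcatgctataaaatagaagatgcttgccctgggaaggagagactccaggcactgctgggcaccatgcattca
Bglap: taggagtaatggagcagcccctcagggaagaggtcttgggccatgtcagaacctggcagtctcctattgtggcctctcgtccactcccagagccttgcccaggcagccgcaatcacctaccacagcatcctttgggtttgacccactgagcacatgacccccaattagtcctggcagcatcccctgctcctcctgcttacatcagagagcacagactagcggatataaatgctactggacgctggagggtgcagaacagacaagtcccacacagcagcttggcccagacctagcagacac

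Gpnmb and Mmp13 each held 1 match to TGANTCA, both reading TGACTCA, while the windows of Ctsk and Bglap held 0. The Mmp13 match began 35 bases before the start, and the Gpnmb match began at base 9 of the transcript. Of 32851 promoter windows of the same length, 7.81% held a match. The motif reads the same on both strands. On either strand, the RUNX motif ACCACA was found once each in the windows of Gpnmb, Mmp13 and Bglap, against 16.8% of all windows. The E-box CACATG was found once in Bglap (14.2% of windows) and CACGTG in none of the 4 genes (7.15%). The NFAT motif GGAAAA was found once each in Ctsk and Mmp13, on the opposite strand (23.4%). None of these matches overlapped another. A match describes the letters of the window only.

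**Figure D1:**
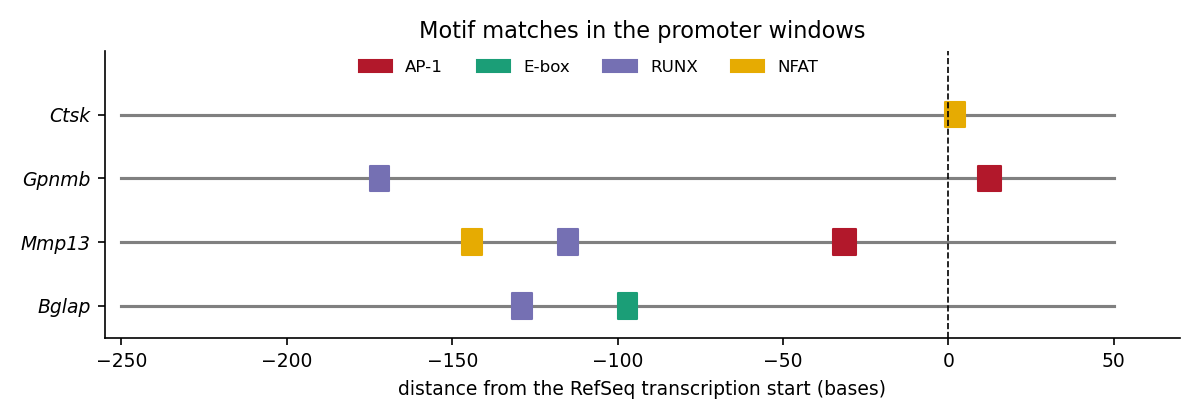
Matches to 4 kinds of motif in the promoter windows of the 4 genes, one line per gene, against the distance from the RefSeq transcription start in bases (dashed line). Coloured blocks are matches; the AP-1 blocks are in Gpnmb, just after the start, and in Mmp13, 35 bases before it.

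The arrays gave 20585 to 20729 usable log2 ratios each. Ratios are read as transgenic over pool. The direction is likely but not certain, because it rests on the labels putting transgenic RNA in channel 1, and higher and lower would exchange throughout if the ratio had been formed the other way. Ratios carry no level, so neither the abundance of a transcript nor the defining markers of lung could be checked. In RNA of a whole organ, more cells of a type and more RNA per cell cannot be told apart. The 2 arrays of mouse 4 agreed least: their values correlated at 0.389 over all probes, against 0.587 to 0.685 in the other mice.

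Ctsk stood above the pool on all 8 arrays. The log2 ratios were 3.60 and 3.18 in mouse 1, 1.83 and 1.89 in mouse 2, 3.13 and 3.01 in mouse 3, and 2.55 and 2.60 in mouse 4, with the Cy5 array of the transgenic RNA first. Mouse 1 was highest and mouse 2 lowest, and in every mouse the 2 arrays lay within 0.42 of each other. The mean was 2.72 ± 0.67 (SD, n = 4 mice), or 6.59-fold over the pool, with a range over mice of 3.63-fold to 10.5-fold. It ranked 13 of 20621 probes from the top by mean.

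Gpnmb was also above the pool on all 8 arrays, but its mice lay far apart. Mouse 1 gave log2 ratios of 3.68 and 3.49 and mouse 3 gave 3.69 and 3.83. Mouse 2 gave 1.06 and 1.25 and mouse 4 gave 0.91 and 1.22. The values of mice 1 and 3 do not overlap those of mice 2 and 4, and no mouse lay near the mean of 2.39 ± 1.48 (SD, n = 4 mice). That split of the mice was picked after the values were seen, and the share of all probes that separate likewise was not counted. As folds over the pool the mouse means were 12.03 and 13.55 in mice 1 and 3, and 2.23 and 2.09 in mice 2 and 4.

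Mmp13 was the member with the widest spread. It stood at 2.82 and 2.74 in mouse 1, 3.68 and 3.40 in mouse 3, and 1.12 and 1.87 in mouse 4. In mouse 2 it stood at -0.24 and -0.29, slightly below the pool. So 6 of 8 arrays and 3 of 4 mice were above the pool, and the mean was 1.89 ± 1.66 (SD, n = 4 mice). Mouse 3 was 11.6-fold over the pool and mouse 1 was 6.87-fold. Leaving out mouse 2 gave a mean of 2.61 and leaving out mouse 3 gave 1.34.

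Bglap had a different profile. Its log2 ratios were 2.48 and 2.30 in mouse 1, 1.67 and 2.90 in mouse 2, 2.02 and 1.63 in mouse 3, and 2.59 and 3.73 in mouse 4. The 2 arrays of one mouse differed by 1.23 in mouse 2 and by 1.14 in mouse 4, where the array with transgenic RNA in Cy3 was the higher. The mean was 2.42 ± 0.55 (SD, n = 4 mice), or 5.34-fold over the pool, and mouse 4 was highest. Mouse Bglap lies in a cluster with the near-identical copies Bglap2 and Bglap3. No probe is named for either copy in the annotation used here, so the signal of the Bglap probe may come from any of the 3 genes.

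**Figure D2:**
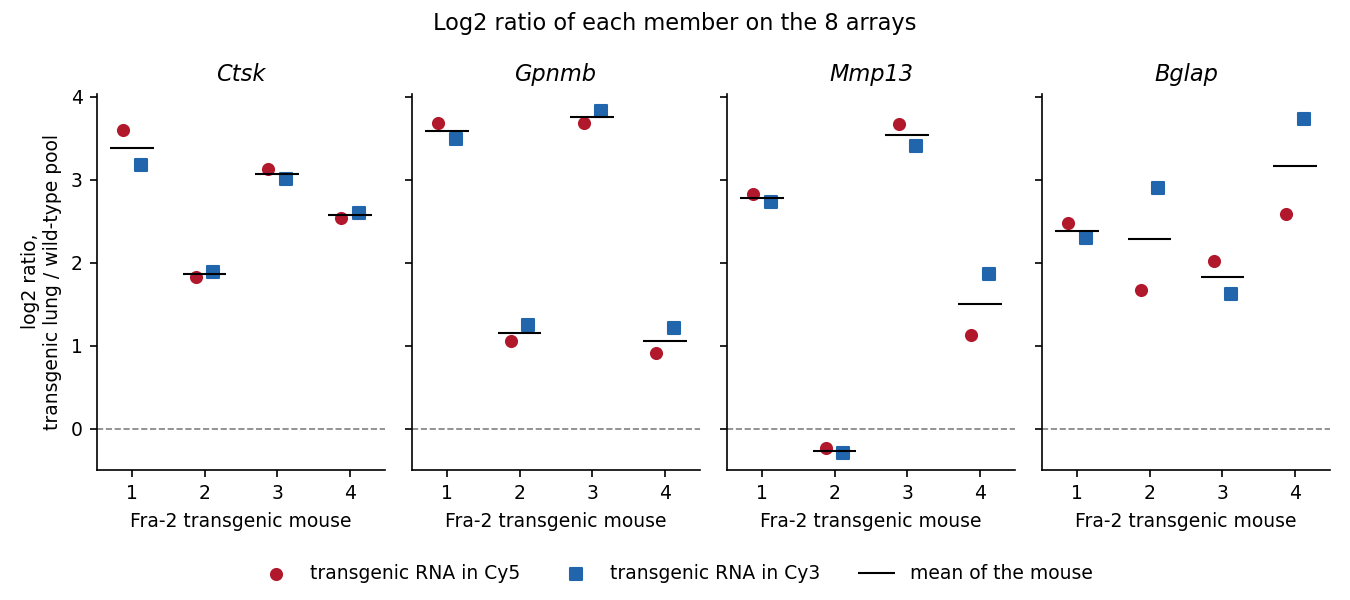
Log2 ratio of transgenic lung over the wild-type pool for the 4 genes on the 8 arrays, by transgenic mouse. Points are arrays (red circles with transgenic RNA in Cy5, blue squares in Cy3), bars are the mean of each mouse, and the dashed line is equality with the pool. Gpnmb lies above 3.4 in mice 1 and 3 and below 1.3 in mice 2 and 4, and Mmp13 in mouse 2 lies just under 0.

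For comparison, 11.1% of the 20621 probes passed as higher and 14.6% as lower in the test against the pool (limma, Benjamini-Hochberg adjusted p under 0.05), and 9.81% of the 20392 probes measured on every array were above 0 on all 8. Nothing is read from this for the 4 genes, since their means chose them. The difference between the arrays of opposite dye averaged 0.10 for Ctsk, -0.11 for Gpnmb, -0.08 for Mmp13 and -0.45 ± 0.86 for Bglap (log2, SD, n = 4 mice). By limma 0 of the 4 genes passed the test for a dye effect (adjusted p = 0.379 to 0.788), and 0.0049% of all probes passed it. At an unadjusted p under 0.05 the counts were 0 of the 4 genes and 4912 of all 20392 probes.

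The next comparison asked whether the 4 transgenic lungs differed from each other. The pool cancels in that comparison, and the mean ratio is not used. Gpnmb, Mmp13 and Ctsk differed between mice and Bglap did not pass. The limma F test took all 8 arrays and corrected for the dye, and 201 of the 20392 probes with a value on every array, or 0.986%, passed. Gpnmb had the third smallest p of all probes (adjusted p = 0.0114) and a range over mice of 2.70 on the log2 scale. Mmp13 had a range of 3.80 (adjusted p = 0.0178), wider than that of 99.98% of probes, whose median range was 0.42. Ctsk had a range of 1.53 (adjusted p = 0.0477), wider than that of 98.77% of probes. Bglap had a range of 1.34 (adjusted p = 0.377), wider than that of 97.79%. The standard error of a difference between mice was 0.43 for Bglap and 0.18 for Ctsk. The spread that this test uses is that between arrays of the same RNA, so it speaks of these 4 RNA samples. The spread over mice was known when the genes were chosen, so their p-values and ranks here are given as a description. The ranks are among all probes, not among probes of a like mean ratio.

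**Figure D3:**
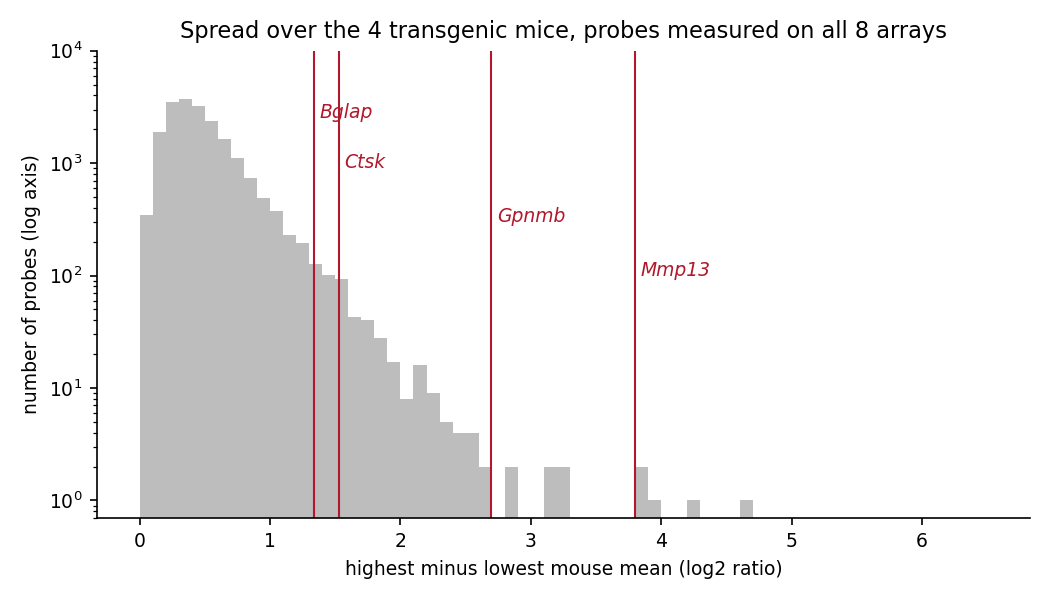
Number of probes (log axis) by the difference between the highest and the lowest mouse mean, for the 20392 probes measured on all 8 arrays. Red lines mark the 4 genes, all in the upper tail: Mmp13 at 3.80 and Gpnmb at 2.70 lie furthest out, and Ctsk at 1.53 and Bglap at 1.34 lie below them.

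Ctsk was past the threshold by little. It missed it with no dye covariate (adjusted p = 0.0623), with each array centred on its median (0.0565) and with extreme values kept (0.0688). Without mouse 1, 2 or 3 the test passed 0, 1 and 0 probes in all, and Gpnmb (adjusted p = 0.0756 to 0.110), Mmp13 (0.098 to 0.24) and Ctsk (0.13 to 0.369) missed the threshold. Without mouse 4, the mouse whose arrays agreed least, 495 probes passed and these 3 genes passed with smaller p (adjusted p = 0.0091 for Gpnmb, 0.00463 for Mmp13 and 0.0216 for Ctsk).

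All 6 pairs of mice were then compared for each gene, a step added after the values were seen, with p-values adjusted over all probes of a pair. Gpnmb passed in 4 of 6 pairs. Mouse 3 exceeded mouse 4 by 2.70 ± 0.17 on the log2 scale (SE, adjusted p = 0.0232) and mouse 2 by 2.61 (adjusted p = 0.0109). Mouse 1 exceeded mouse 4 by 2.53 (adjusted p = 0.0088) and mouse 2 by 2.43 (adjusted p = 0.012). The order was mouse 3, 1, 2 and 4. Its neighbours at the top, mice 1 and 3, differed by 0.17 ± 0.17, and those at the bottom, mice 2 and 4, by 0.09 ± 0.17, neither beyond the error.

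Mmp13 passed in 3 of 6 pairs. Mouse 2 was below mouse 3 by 3.80 ± 0.26 (SE, a 13.9-fold difference, adjusted p = 0.0109) and below mouse 1 by 3.04 (adjusted p = 0.0184). Mouse 3 was above mouse 4 by 2.04 (adjusted p = 0.0391). The order was mouse 3, 1, 4 and 2, and no pair of neighbours in it passed. Mouse 2 lay 1.76 ± 0.26 below mouse 4, with an unadjusted p of 3.6e-04 and an adjusted p of 0.363.

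Ctsk passed in 2 of 6 pairs, with mouse 2 below mouse 1 by 1.53 ± 0.18 (SE, adjusted p = 0.0371) and below mouse 3 by 1.21 (adjusted p = 0.0315). The order was mouse 1, 3, 4 and 2, and no neighbours in it passed. Bglap passed in 0 of 6 pairs by limma, and 1 pair had an unadjusted p under 0.05. That pair was mice 3 and 4, in which mouse 3 was lower by 1.34 ± 0.43 (SE, adjusted p = 0.179). Over all probes, 0.593% passed between mice 1 and 2, 1.66% between mice 2 and 3, and 0.809% between mice 3 and 4. The shares were 0.147% between mice 1 and 4, 0.0343% between mice 1 and 3, and 0% between mice 2 and 4, where 2155 of 20392 probes had an unadjusted p under 0.05. So mice 1 and 3, and mice 2 and 4, were the pairs with the fewest differences over the array as a whole.

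Named probes with the values closest to each gene were found by the root mean square difference of the log2 ratios over the 8 arrays. Closest to Gpnmb was Arg1, the arginase 1 gene of alternatively activated macrophages, at 0.53. Arg1 stood at 3.58, 0.45, 3.28 and 0.71 in mice 1 to 4, high in the same mice as Gpnmb. Arg1 was also the closest to Mmp13, at 0.72, followed by Gpnmb at 0.87. The chemokine gene Ccl12 was among the closest 4 of both, as were the pendrin gene Slc26a4 for Gpnmb and the complement gene C1qa for Mmp13.

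Closest to Ctsk was Ccl9, a chemokine gene that osteoclasts also express, at 0.43, with 3.93, 2.02, 3.43 and 3.07 in mice 1 to 4. Saa3, Slc26a4 and Lcn2 followed at 0.47 to 0.54. Ccl9 was lowest in mouse 2, as Ctsk was. Closest to Bglap were Disc1 (0.50), Tbl2 (0.51), Atp5h (0.72) and Fetub (0.82), none of which was among the closest of the other 3 genes. The name of Tbl2 lies in the block of annotation numbers where the names were least certain. Among the 4 genes, Bglap was 0.97 from Ctsk, 1.69 from Gpnmb and 1.79 from Mmp13. The likeness is over 8 arrays of 4 mice that share the pool, and is given as a description.

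**Figure D4:**
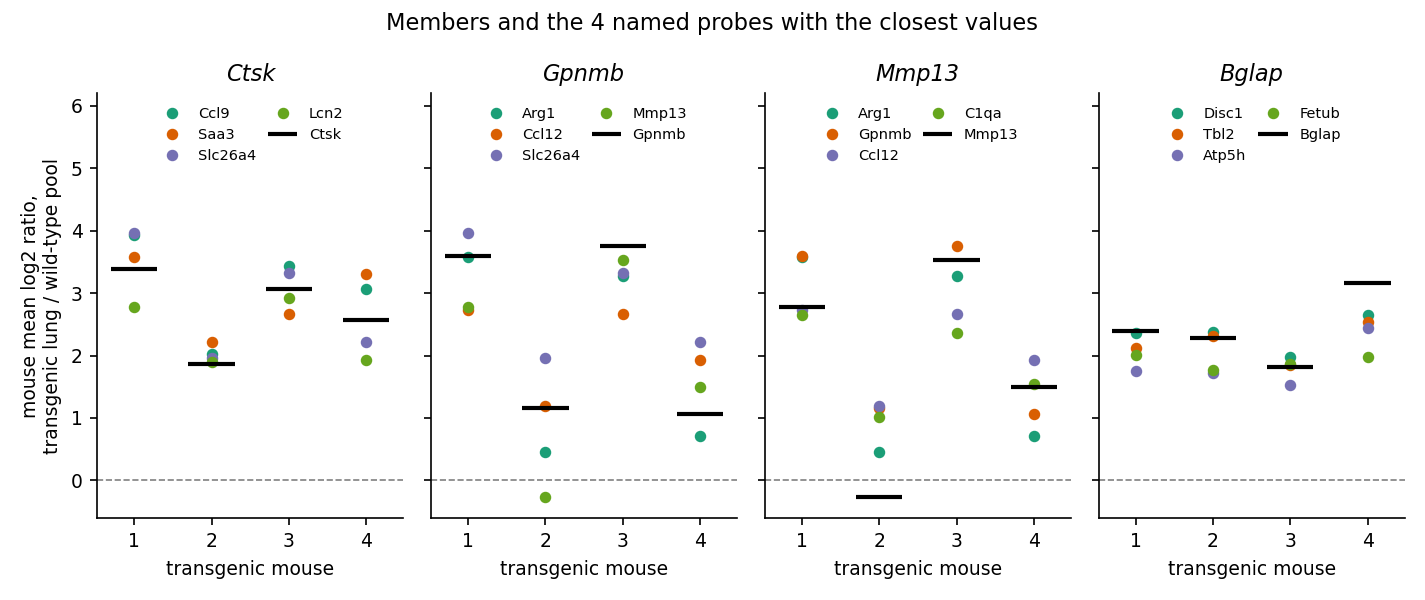
Mean log2 ratio of transgenic lung over the wild-type pool in each transgenic mouse for the 4 genes (black bars) and the 4 named probes with the closest values (coloured points). Arg1 follows Gpnmb and Mmp13, high in mice 1 and 3 and low in mice 2 and 4, while the probes closest to Bglap stay between 1.5 and 2.7 in every mouse.

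Other genes of the same pathways came from lists made with earlier results of these data known, and they were tested in the fit over all 8692 named genes, in which 13.5% passed as higher and 18.4% as lower. The median of all genes was -0.01 on the log2 scale. The share of all genes with an unadjusted p under 0.05 was not counted, so unadjusted counts of a list have no such share to be read against. Lists are counted without Ctsk, Gpnmb, Mmp13 and Bglap, and values are mean log2 ratios over 4 mice with their SD.

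Of 35 other osteoclast genes listed, 23 were measured, and Dcstamp, Oscar and Itgb3 were not among them. Of the 23, 10 were higher, 1 was lower and 12 did not pass, with a median of 0.19. Trem2, a receptor of myeloid cells and osteoclast precursors, rose by 1.87 ± 0.46 (adjusted p = 9.1e-04). Acp5, which encodes the tartrate-resistant acid phosphatase used to stain osteoclasts, rose by 1.40 ± 0.45 (adjusted p = 0.00179), and the proton pump gene Atp6v1b2 by 0.83 ± 0.27 (adjusted p = 0.00296). Acp5 stood at 1.76, 0.78, 1.68 and 1.36 in mice 1 to 4, lowest in the mouse where Ctsk was lowest. Mmp9, the osteoclast gelatinase gene, was lower at -0.37 as the mean of probes at -0.74 and 0.0015. Chosen after its values were seen, Tnfrsf11a, which encodes the receptor RANK, passed at 0.35 ± 0.25 (adjusted p = 0.0417), the mean of disagreeing probes at 0.82 (adjusted p = 0.0105) and -0.13 (adjusted p = 0.3). Also chosen after their values were seen, Nfatc1, the master factor of osteoclasts, stood at -0.13 ± 0.22 as the mean of 4 probes between -0.39 and 0.16, the calcitonin receptor gene Calcr at 0.17 ± 0.08 and the fusion gene Ocstamp at 0.41 ± 0.37, and none of the 3 passed (adjusted p = 0.344, 0.111 and 0.0575). The count of higher genes was 6 without mouse 1, without mouse 3, on the Cy3 arrays alone and with extreme values kept. Of 15 listed genes of osteoclast signals, 5 were measured. Among these, Ccl9 (3.11 ± 0.81) and Il34 (0.58 ± 0.10), a ligand of the colony-stimulating factor 1 receptor, rose. Il1b fell to -0.50 ± 0.28, and lost its call without mouse 2, without mouse 3 and with only the Cy5 arrays (adjusted p = 0.0505 to 0.0637).

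Of 16 cathepsin and cystatin genes measured apart from Ctsk, 9 were higher and 1 was lower, with a median of 0.49. The cathepsin S gene Ctss (1.22 ± 0.51), the cystatin F gene Cst7 (1.20 ± 0.57) and the cystatin B gene Cstb (0.90 ± 0.15) rose; cystatins are inhibitors of these proteases. Ctsf was lower at -0.35 ± 0.21, the mean of probes at -0.55 and -0.15, a call lost without mouse 1, 2 or 4 and with only the Cy5 arrays (adjusted p = 0.0887 to 0.108). The count of higher genes was 6 without mouse 1 or without mouse 3. The list medians were 0.81, 0.22, 0.71 and 0.37 in mice 1 to 4, highest in mice 1 and 3, where Gpnmb and Mmp13 were also highest.

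Of 13 genes of matrix metalloproteinases and their inhibitors measured apart from Mmp13, 5 were higher and 2 were lower, with a median of 0.16. The inhibitor gene Timp1 rose by 0.85 ± 0.33, and Timp3 fell to -1.07 ± 0.23 as the mean of 4 probes between -1.42 and -0.08. The stromelysin gene Mmp3 (0.52 ± 0.40) and the membrane-type gene Mmp14 (0.51 ± 0.44) passed as higher, but each missed the threshold in 5 of 11 alternative settings (adjusted p = 0.0504 to 0.151). Mmp14 as higher and Mmp9 as lower are also counted in the osteoclast list. The count of higher genes was 1 without mouse 1, 2 without mouse 2, 3 or 4, 1 on the Cy3 arrays alone and 2 with extreme values kept. Of 10 fibril-forming collagen genes, 0 were higher and 1 was lower by limma, and at an unadjusted p under 0.05 the counts were 1 and 1. Col27a1 was the lower one at -0.27 ± 0.11, a call lost without mouse 1, 2 or 4 and with only the Cy5 arrays (adjusted p = 0.0784 to 0.138).

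Of 37 osteoblast and bone matrix genes listed apart from Bglap, 13 were measured, and Runx2, Sp7, Ibsp and Dmp1 were not among them. Of the 13, 2 were higher and 2 were lower, with a median of -0.06. The vitamin D receptor gene Vdr stood at 0.26 ± 0.07, the mean of probes at 0.52 and 0.003, and Mepe, a gene of osteocytes, at 0.40 ± 0.32. Both passed, but missed the threshold in 4 and 7 of 11 alternative settings (adjusted p = 0.0674 to 0.524). The osteoglycin gene Ogn stood at -1.41 ± 0.43 and was lower (adjusted p = 0.00159) and Bmp7 stood at -0.41 ± 0.18, the mean of probes at -0.76 and -0.06. Bmp7 lost its call without mouse 1, without mouse 3 and with only the Cy3 arrays (adjusted p = 0.0511 to 0.169). Alpl, the alkaline phosphatase gene of mineralising osteoblasts, stood at 0.12 ± 0.31 and Col1a1 at -0.27 ± 0.44; both were chosen after their values were seen, and neither passed (adjusted p = 0.481 and 0.229). Of 12 cartilage genes other than Mmp13, the chondrocyte factor gene Sox9 was higher (0.44 ± 0.20), and the growth factor receptor gene Fgfr3 (-1.0 ± 0.28) and the cartilage matrix gene Comp (-0.31 ± 0.17) were lower. Comp lost its call in 6 of 11 alternative settings, leaving out any mouse among them (adjusted p = 0.0507 to 0.124).

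**Figure D5:**
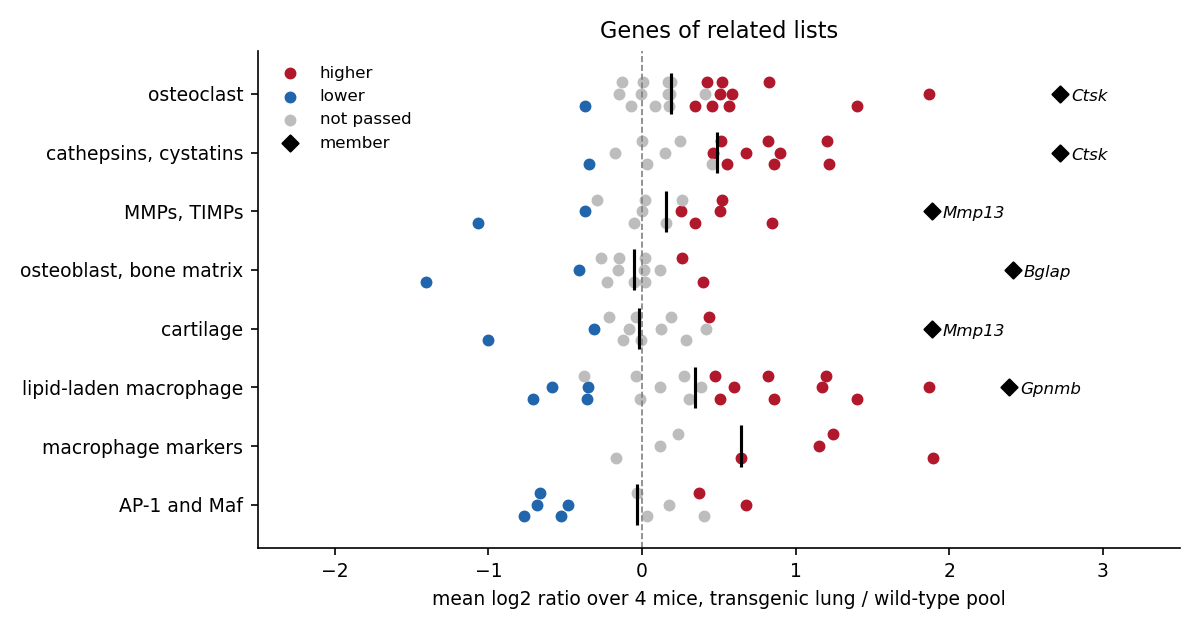
Mean log2 ratio over 4 transgenic mice, transgenic lung over the wild-type pool, for the measured genes of 8 lists. Red and blue points passed the test as higher and lower, grey points did not pass, black bars are list medians without the 4 genes, and black diamonds are Ctsk, Gpnmb, Mmp13 and Bglap, which lie to the right of every other point of the lists they are drawn on. The 4 genes were chosen with that mean known, so nothing is read from their place.

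Genes of lipid-laden macrophages, in which Gpnmb is a known marker, numbered 20 measured apart from Gpnmb, of which 9 were higher and 4 lower, with a median of 0.35. The count of lower genes was 1 without mouse 2, and 2 without mouse 4 or with extreme values kept. Beside Trem2 and Acp5, the galectin 3 gene Lgals3 rose by 1.20 ± 0.58 (adjusted p = 0.00561). Trem2 and Acp5 are also counted as higher in the osteoclast list. Ctsb and Ctsd, chosen after their values were seen, are also counted as higher in the cathepsin list. Plin2, chosen in the same way, did not pass as the mean of disagreeing probes at 0.96 (limma, adjusted p = 0.00694) and -0.42 (adjusted p = 0.0401). The lipoprotein lipase gene Lpl fell to -0.71 ± 0.33, and the apolipoprotein gene Apoc1 stood at -0.58 ± 0.38, passing except without mouse 2 (adjusted p = 0.0682). Lamp1 was lower at -0.36 ± 0.26, the mean of 3 probes between -0.67 and -0.05, and lost its call in 5 of 11 alternative settings (adjusted p = 0.0597 to 0.139). The list medians were 0.66, 0.11, 0.49 and 0.09 in mice 1 to 4. Of 3 measured genes of the melanosome and the MiT/TFE factors, which regulate Gpnmb, Tfe3 passed as higher (0.56 ± 0.17), though not with only the Cy3 arrays (adjusted p = 0.128).

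Of 15 general macrophage markers listed, 7 were measured, and Cd68, Adgre1 and Csf1r were not among them. Of the 7, 4 were higher and 0 lower by limma, with 0 lower also at an unadjusted p under 0.05. C1qa (1.89 ± 0.75), the mannose receptor gene Mrc1 (1.25 ± 0.27) and C1qc (1.15 ± 0.55) led them. The genes named next were chosen after their values were seen. C1qb (0.64 ± 0.13) was the remaining higher gene. Msr1, also on the lipid-laden list, did not pass as the mean of disagreeing probes at 0.87 (limma, adjusted p = 0.00327) and -0.64 (adjusted p = 0.00754). Lyz2 (-0.17 ± 0.17) and Fcgr1 (0.24 ± 0.34) did not pass either. The medians of this list were 0.74, 0.61, 0.46 and 0.66 in mice 1 to 4. Of 5 alveolar macrophage markers, Chil3 (4.43 ± 0.41) and Mrc1 rose, and Marco (-2.54 ± 0.28), Fabp4 (-1.16 ± 0.58) and Fabp1 (-0.89 ± 0.23) fell. Fibroblast markers were lower in 4 and higher in 0 of 12, with 5 lower and 0 higher at an unadjusted p under 0.05, led by Inmt (-1.57 ± 0.43), Npnt (-1.19 ± 0.40) and Postn (-1.08 ± 0.46). Their medians were -0.09, -0.54, 0.05 and -0.64 in mice 1 to 4, higher in the mice where Gpnmb was high. Heart and skeletal muscle markers were lower in 11 of 12 (median -0.79) and fat markers in 6 of 8 (median -1.36), with 0 higher in either, also unadjusted.

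Marrow and erythroid markers were higher in 4 and lower in 1 of 10. Ngp (0.91 ± 0.26), Ltf (0.88 ± 0.62) and Camp (0.48 ± 0.16), genes of neutrophil granules, were higher, and the haemoglobin gene Hba-a1 was lower (-0.61 ± 0.16). The remaining higher gene, named after its values were seen, was the erythroid factor gene Klf1 (0.47 ± 0.12, adjusted p = 0.00547). Also named after their values were seen, the granule genes Mpo (-0.01 ± 0.10), Elane (0.21 ± 0.46) and Prtn3 (-0.18 ± 0.25) did not pass (adjusted p = 0.218 to 0.959). Ltf lost its call without mouse 1, 2 or 4 (adjusted p = 0.0573 to 0.0848). Airway cartilage markers were higher in 2 and lower in 1 of 6, namely Sox9, Cnmd (0.37 ± 0.30, lost in 6 of 11 alternative settings, adjusted p = 0.0588 to 0.324) and Comp. All of the 6 but Cnmd are also on the cartilage list. Of 6 lung epithelium markers, the surfactant gene Sftpb passed as higher (0.37 ± 0.19), and Ager (-0.78 ± 0.23) and Aqp5 (-0.55 ± 0.24) fell. Sftpb lost its call without mouse 1, without mouse 2 and with only the Cy3 arrays (adjusted p = 0.0879 to 0.153). The part of any of these cell types in the values of Ctsk, Gpnmb, Mmp13 and Bglap was not tested.

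Of 11 AP-1 and Maf family genes measured, 2 were higher and 5 were lower, with a median of -0.04. Batf (0.68 ± 0.31) and Junb (0.37 ± 0.18) were higher. Fosb (-0.77 ± 0.47), Mafk (-0.68 ± 0.17), Jun (-0.66 ± 0.22), Jdp2 (-0.53 ± 0.28) and Atf2 (-0.48 ± 0.10) were lower. Junb lost its call without mouse 1 or mouse 3 (adjusted p = 0.0586 and 0.0817) and Jdp2 without mouse 2 and with only the Cy5 arrays (adjusted p = 0.0538 to 0.28). Fosl1, which encodes Fra-1, the closest relative of Fra-2, chosen after its values were seen, stood at 0.40 ± 0.41 and did not pass (adjusted p = 0.0746).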

How the data were processed

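Lung RNA of 4 transgenic mice was measured on 8 two-colour arrays against 1 wild-type pool. The deposited values are log2 ratios made by the authors, 1 per probe and array; for their normalization and software the sources used here say nothing. No intensities were used, so signal over background is unknown, and the number of mice limits the precision. Values beyond 10 in size (498) were set to missing, and 706 were missing as deposited.

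Gene names come from the platform annotation with its probe number raised by 11, for numbers up to 20237. At that offset probes of the same gene correlated at 0.239 (Spearman, 3550 pairs), the highest of 121 offsets tried, the next being 0.060. Within 500 numbers of each member it was 0.214 to 0.317, against at most 0.089. The block of numbers starting at 8000 was the one of 21 where another offset did better. Symbols were updated with RefSeq GRCm38.p6, which also gave the promoters.

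Dye-swapped arrays were averaged per mouse and set against 0 by limma, version 3.58.1, under R 4.3.3. With 1 pool, the spread among control mice does not enter. Differences between mice used an F test with dye as covariate, with 3 residual and 3.5 prior degrees of freedom. All p-values are two-sided or F-based, and they are Benjamini-Hochberg adjusted unless called unadjusted. The 3 tests were tested on simulated data. Tables and plots were made in Python 3.11.15 (pandas 2.3.3; matplotlib 3.10.9).

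Members and lists were chosen with earlier results of these data known. Named list genes are up to 3 highest and 3 lowest passing genes of a list and all passing AP-1 genes; muscle and fat lists are given as counts. For each member, the 4 closest probes of other genes are named. Other genes named are said to be chosen after their values were seen. The comparison of pairs of mice was added after the values were seen. Alternatives left out a mouse or a dye orientation, centred arrays, kept extreme values, required 8 values, or used the mouse as a random block.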

Additional observations from a re-analysis of the deposited data

Results flagged for a closer look

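Among 57 genes named in the text and tested for a mouse far from the others, 3 were flagged, and chance flags about 1 in 20. None was Ctsk, Gpnmb, Mmp13 or Bglap. Lamp1 stood at 0.03 in mouse 1 and between -0.51 and -0.47 in the other mice, a gap of 0.918 of the whole range. Inmt stood at -2.21 in mouse 4 and between -1.40 and -1.28 in the others, a gap of 0.868 of the range. Marco stood at -2.96 in mouse 3 and between -2.46 and -2.36 in the others, a gap of 0.837 of the range. The cause was not tested.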

How the results depend on the processing

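The mean log2 ratios kept their sign under all 11 alternatives, between 2.50 and 3.01 for Ctsk, 1.93 and 2.83 for Gpnmb, 1.34 and 2.61 for Mmp13, and 2.17 and 2.64 for Bglap, each within 1 SD of its main value. The count of probes higher than the pool was 2283, and it ranged from 1011 to 1890 when a mouse was left out; it was 1208 on the Cy3 arrays alone. The count of lower probes was 3019, ranging from 1536 to 2193 when a mouse was left out, and was 1982 on the Cy3 arrays alone. The count that differed between mice was 201, with 84 under no dye covariate, 78 with extreme values kept and 0 to 495 when a mouse was left out. The count with a dye effect was 1, and 0 to 1 when a mouse was left out. The cause of these changes was not tested, beyond fewer samples entering a fit that leaves one out. No pairing of transgenic with wild-type mice was possible because the samples form 1 group with the pool as the only control. With the mouse as a random block the same 4 means were obtained, which the balanced design fixed in advance. The limits are 4 mice, 1 pool, an inferred direction and inferred names, and 1 probe for each of the 4 genes.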

Other observations

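Of 239 probes of the other list genes measured on all 8 arrays, 14 differed between mice, against 0.986% of all probes; these were chosen after their values were seen. The cathepsin L gene Ctsl stood at 1.57, -0.59, 1.44 and -0.59 on the log2 scale in mice 1 to 4 (limma F test, adjusted p = 0.0117). The cathepsin B gene Ctsb stood at 1.48, 0.23, 1.42 and 0.35 on 1 of its probes (adjusted p = 0.032). Probes of matrix genes had similar orders: Mmp2, which encodes gelatinase A, stood at 0.52, -0.80, 0.88 and -0.52 (adjusted p = 0.0404). The collagen gene Col5a2 stood at 0.54, -0.48, 0.89 and -0.35 on its probe that passed (adjusted p = 0.0338). One probe of Col1a1 stood at -0.28, -0.96, 0.31 and -1.14 (adjusted p = 0.032). On each of these 5 probes mice 1 and 3 were above mice 2 and 4, as for Gpnmb and Mmp13. Over all probes, mice 1 and 3 (0.0343% passed) and mice 2 and 4 (0%) were the pairs with the fewest differences. The share of all probes with mice 1 and 3 above mice 2 and 4 was not counted, so that order is not shown to be particular to these genes. The passing probes of C1qa, C1qc, Ccl9, Mmp14 and Sparc had that order too. Passing probes of Car3 (-5.12, -3.80, -1.86 and -2.37 in mice 1 to 4), Cidec (-2.35, -1.39, -1.45 and -1.01) and Ltf (0.79, 1.16, -0.18 and 1.43) did not. The other probe of Col5a2 did not have that order, at 0.10, 0.41, 0.17 and 0.39 (adjusted p = 0.807), and the other probes of Ctsb and Col1a1 had it but did not pass (adjusted p = 0.0613 and 0.322). The 2 probes of the cartilage gene Chad disagreed: one stood at -0.14, 1.70, -0.21 and 1.34 (adjusted p = 0.0178), with mice 1 and 3 below mice 2 and 4, and the other at -0.20, 0.21, 0.41 and 0.19 (adjusted p = 0.625).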
